A study of Homo sapiens with 9 samples.

Results

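The interactions of the ERRFI1 promoter were measured with Capture-C, a method that ligates DNA ends that lie close together in fixed nuclei and then pulls down the ligated fragments of a chosen promoter, called the viewpoint. The members described here are the 2723 fragments left by the restriction enzyme DpnII whose midpoint lies within 500 kb of the ERRFI1 start site on chromosome 1 (hg38, position 8026309, minus strand). They are a small part of the 630869 fragments listed for this viewpoint and of the 11339756 listed for the 20 viewpoints of the series, and sequence within 10 kb of the start site was left out of the tests. All cells were HCT-116, an established human colorectal carcinoma line, in the MED14-dTAG form, in which the Mediator subunit MED14 carries a degradation tag; the controls carry this tag too, and whether the line is 1 clone is not given in the sources used here. Of the 9 libraries, 3 came from cells in DMSO, the solvent, 3 from cells in dTAG ligand, which triggers degradation of the tagged MED14 (0.5 μM for 2 h), and 3 from cells in the same ligand combined with I-BET, an inhibitor of BET bromodomain proteins (1 μM for 90 min; dTAG+I-BET). The study calls the replicates biologically independent. The headers of the deposited values label them TR, and what TR stands for is not given in the sources used here. The libraries do not hold a measure of MED14, so that its loss was not checked here. The sample descriptions spell the viewpoint ERRIF1, and 3 adjoining fragments without values lie at the ERRFI1 start site.

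ERRFI1 encodes an adaptor protein that binds the kinase domains of the epidermal growth factor receptor family and inhibits them, and growth factor signalling induces its transcription, which closes a negative feedback loop. Mediator is a large complex that relays signals from transcription factors at enhancers to RNA polymerase II at promoters. Cohesin is a ring complex that extrudes chromatin loops and is held up at sites bound by the insulator protein CTCF. The comparison of the 3 treatments addresses how the interactions of a promoter depend on Mediator, and on BET proteins when Mediator is depleted.

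The fragment that holds the ERRFI1 start site, chr1:8026077-8027770, is 1694 bases long. This fragment and its neighbours of 1239 and 440 bases carry no values. The 250 bases before the start site, a part of the fragment of 1694 bases, are shown as the promoter sequence (RefSeq, GRCh38.p14, chr1:8026310-8026559, minus strand). A run of TA repeats is in capitals.
ERRFI1 promoter: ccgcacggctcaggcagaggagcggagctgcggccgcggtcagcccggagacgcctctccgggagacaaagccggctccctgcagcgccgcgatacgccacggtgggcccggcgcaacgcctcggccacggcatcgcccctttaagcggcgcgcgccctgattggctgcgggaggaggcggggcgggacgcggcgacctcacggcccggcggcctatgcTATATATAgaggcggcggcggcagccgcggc
The sequence is 75.2% G and C and holds 39 CG pairs. The capitals lie 31 to 24 bases before the start site. The letters TATATA, searched on both strands after this sequence had been seen, occur in 3.99% of 35116 RefSeq promoter windows of 300 bases. The window of ERRFI1 holds no GATC, the letters that DpnII cuts, and none of the letters searched for AP-1 (TGANTCA), TCF/LEF (CTTTGAT), TEAD (GGAATG) or CTCF (CCA, any 2 bases, AGG, any base, GGC).

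The positions of sites with less of the cohesin subunit SMC1A in dTAG-treated cells, which the study chose from CUT&Tag and so without the Capture-C values, give a set of 881 sites over the genome. Of these sites, here called cohesin-lost sites, 12 lie within 500 kb of ERRFI1, all of them upstream, between 50.5 and 206.0 kb from the start site. Each is 401 bases long. Sites 1 to 5, numbered by distance, lie in introns of ERRFI1-DT, the long non-coding RNA gene that runs away from the ERRFI1 promoter over 96.0 kb (chr1:8026738-8122702), and site 6 overlaps one of its exons. Site 9 overlaps an exon of the non-coding gene ENSG00000288816 and site 11 an exon of the non-coding gene LINC01714, while sites 7, 8, 10 and 12 lie between annotated genes. The letters TGANTCA, which AP-1 transcription factors recognise, occurred in 7 of the 12 sites, beside 63.9% of all 881 cohesin-lost sites and 11.6% of the 2493 windows of 401 bases that tile the locus. The 10 matches are shown because AP-1 letters occurred in more of these sites than those of the other transcription factors searched. Each is printed on the plus strand of hg38 with 27 bases on either side, and the capitals mark the match.
site 2, chr1:8078357-8078417: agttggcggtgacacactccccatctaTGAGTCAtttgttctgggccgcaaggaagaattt
site 4, chr1:8094669-8094729: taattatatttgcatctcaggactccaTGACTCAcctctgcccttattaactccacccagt
site 5, chr1:8097551-8097611: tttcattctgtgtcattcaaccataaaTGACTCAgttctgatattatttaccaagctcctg
site 5, chr1:8097712-8097772: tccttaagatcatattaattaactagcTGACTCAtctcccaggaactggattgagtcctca
site 6, chr1:8121498-8121558: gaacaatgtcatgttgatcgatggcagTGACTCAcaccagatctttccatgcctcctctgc
site 8, chr1:8182346-8182406: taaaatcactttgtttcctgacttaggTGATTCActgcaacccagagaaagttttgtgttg
site 8, chr1:8182549-8182609: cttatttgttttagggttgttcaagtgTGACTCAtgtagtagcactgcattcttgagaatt
site 10, chr1:8197866-8197926: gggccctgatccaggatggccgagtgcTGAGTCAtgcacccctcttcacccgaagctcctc
site 12, chr1:8232263-8232323: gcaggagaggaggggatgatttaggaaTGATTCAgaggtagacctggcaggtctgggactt
site 12, chr1:8232381-8232441: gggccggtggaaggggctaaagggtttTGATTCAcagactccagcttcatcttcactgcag
The TEAD letters occurred in sites 2 and 12 (36.0% of all cohesin-lost sites), where the match in site 12 overlaps the first AP-1 match printed for it. The TCF/LEF letters occurred in site 12 alone (8.97% of all cohesin-lost sites). The CTCF letters occurred in none of the 12 (0.227%).

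The deposited values, called signal here, are interactions of the promoter that the authors had brought to nearly equal totals in all libraries, and they are given per kb of sequence. The ERRFI1 viewpoint held 24038 to 45608 interactions on chromosome 1 in a library, and 43.8% to 54.6% of them lay between 10 and 500 kb from the start site. dTAG replicate 3 stood apart from the other libraries. It had 43.8% of its chromosome 1 interactions at 10 to 500 kb against 51.8% to 54.6% in the other 8 libraries, and 42.8% beyond 1000 kb against 32.6% to 36.3%. Over all 20 viewpoints, interactions with other chromosomes made up 39.6% in this library and 33.6% to 36.7% in the others. Results that rest on it are given with and without it. Intervals and p-values are from limma, fitted over all 20 viewpoints, unless stated otherwise; a call needs an adjusted p under 0.05.

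In DMSO, the interactions of ERRFI1 pointed upstream, away from the gene and over ERRFI1-DT. Signal from 10 to 500 kb upstream was 801.3, 770.2 and 767.0 per kb in DMSO replicates 1, 2 and 3. Signal from 10 to 500 kb downstream was 239.1, 245.5 and 242.7 per kb. The sides did not overlap, and upstream sequence held 76.3% ± 0.65 (SD, n = 3) of the interactions at these distances. Among the 20 viewpoints this share was the highest, but that of HMGA2 was 76.1% ± 4.45 (SD, n = 3), so that the top of this order was not separated from the next by more than the spread of the libraries. The next viewpoint, ITPRID2, was at 67.7% ± 1.44 (SD, n = 3), below both.

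**Figure D1:**
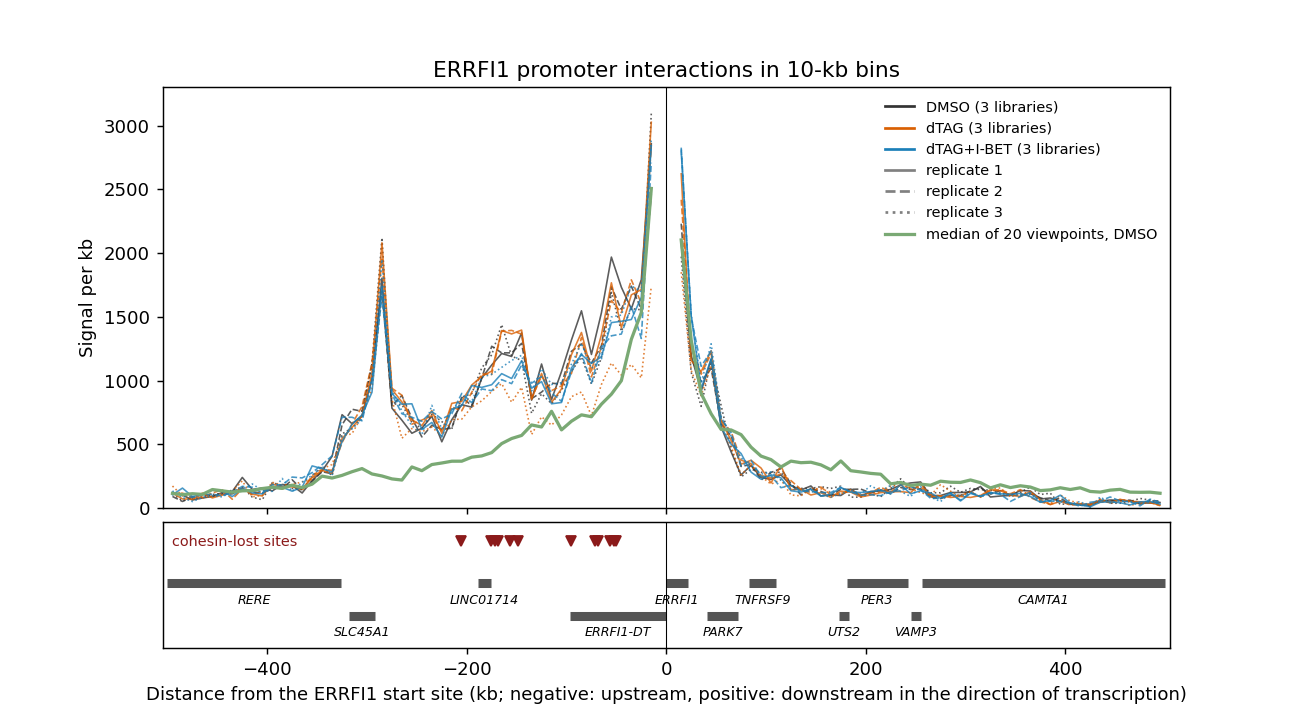
Signal per kb (y axis) of the ERRFI1 viewpoint in 98 bins of 10 kb against distance from the start site (x axis, kb), with 1 line per library, the DMSO median of the 20 viewpoints at the same distance and side, the 12 cohesin-lost sites as triangles, and genes as bars. DMSO signal lies above the median over the cohesin-lost sites, is highest next to the promoter, has a separate summit at 280 to 290 kb upstream, where DMSO replicates were at 1803.1, 1703.2 and 2119.5 per kb, and falls steeply on the downstream side.

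Over the sequence that holds the cohesin-lost sites, signal in DMSO stayed high. In the 16 bins from 50 to 210 kb upstream, DMSO means ranged from 815.8 to 1798.1 per kb, and all 16 lay above the median of the 20 viewpoints at the same distance and side, by a median factor of 1.92. The bin from 50 to 60 kb upstream, which covers sites 1 to 3, had the highest DMSO mean of them (1798.1 ± 149.1, SD, n = 3). All 7 bins from 210 to 280 kb upstream, beyond the last site, also lay above that median, by a median factor of 2.05. In the 43 bins from 70 to 500 kb downstream, by contrast, DMSO means ranged from 22.4 to 326.8 per kb, and none lay above that median. The downstream genes in this range are TNFRSF9, a costimulatory receptor of lymphocytes, UTS2, a vasoactive peptide hormone, PER3, a circadian clock component, VAMP3, a vesicle fusion protein, and CAMTA1, a calmodulin-binding transcription activator. Nearer to the promoter, PARK7, which encodes a protein that protects cells from oxidative stress, was reached at 727.8 ± 33.8 per kb (SD, n = 3).

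A separate summit lay beyond the cohesin-lost sites. The bin from 280 to 290 kb upstream, chr1:8306309-8316308, was at 1803.1, 1703.2 and 2119.5 per kb in DMSO replicates 1, 2 and 3, which is 7.45 times the median of the viewpoints at that distance (251.6 per kb). By this measure it ranked the highest of all 98 ERRFI1 bins. The next 4 were its neighbours at 290 to 300 kb (4.08 times), 260 to 270 kb (3.62 times) and 270 to 280 kb (3.51 times) and the bin at 170 to 180 kb, which holds sites 10 and 11 and the start of LINC01714 (2.75 times). In all 5 bins ERRFI1 had the highest DMSO mean of the 20 viewpoints. The summit bin holds no annotated gene and lies just before SLC45A1, a sugar transporter gene (chr1:8318114-8344167), whose body was at 785.4 ± 39.0 per kb (SD, n = 3).

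The summit was made up of several neighbouring fragments. Of the 236 fragments from 250 to 340 kb upstream, the one with the highest DMSO signal was chr1:8313029-8313398, of 370 bases, at 1378.0, 1281.5 and 1232.7. These are values of a whole fragment, not per kb, and a longer fragment can collect more. Its levels in dTAG were 1286.4, 1169.0 and 954.5, and in dTAG+I-BET 939.6, 937.8 and 1560.9, so that the groups overlapped. Of the fragments that hold the CTCF letters, chr1:8310163-8310894, of 732 bases, ranked 8 of the 236. It was at 830.7 ± 70.8 in DMSO (SD, n = 3), 841.6 ± 128.5 in dTAG and 799.2 ± 68.8 in dTAG+I-BET. The other fragments with these letters ranked 51, 65, 135 and 167.

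Signal fell near the end of RERE, which encodes an atrophin-family transcriptional corepressor and is transcribed towards ERRFI1 (chr1:8352397-8848921). In DMSO the bins from 310 to 320, 320 to 330 and 330 to 340 kb upstream were at 687.7 ± 77.7, 655.8 ± 75.1 and 309.2 ± 83.8 per kb (SD, n = 3). The RERE body within 500 kb was at 161.1 ± 9.10 per kb (SD, n = 3). Of 15 matches to the CTCF letters within 500 kb of ERRFI1, 5 lie at the summit or at this fall, and they are shown for that reason. Each is printed on the strand of the match, with 27 bases on either side and the match in capitals (hg38). Windows of 401 bases with these letters made up 0.562% of the locus, and such a match is a description of the sequence and not evidence of binding.
284.2 kb upstream, minus strand, chr1:8310512-8310577: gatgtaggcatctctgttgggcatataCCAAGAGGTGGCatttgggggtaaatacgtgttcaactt
322.9 kb upstream, minus strand, chr1:8349139-8349204: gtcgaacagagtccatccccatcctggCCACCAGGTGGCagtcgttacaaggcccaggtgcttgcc
331.4 kb upstream, plus strand, chr1:8357725-8357790: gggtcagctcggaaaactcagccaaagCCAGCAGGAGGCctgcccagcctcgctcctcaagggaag
333.0 kb upstream, plus strand, chr1:8359312-8359377: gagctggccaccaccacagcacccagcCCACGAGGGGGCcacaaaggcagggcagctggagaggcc
334.1 kb upstream, minus strand, chr1:8360394-8360459: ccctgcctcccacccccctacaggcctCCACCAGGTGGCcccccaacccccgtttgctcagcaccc

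In dTAG, 1 of the 98 ERRFI1 bins fell relative to DMSO, and no upstream bin, site or band passed the test. The bin that fell, 380 to 390 kb downstream in CAMTA1 (chr1:7636309-7646308), was at 78.7, 57.9 and 116.4 per kb in DMSO and at 26.5, 29.8 and 36.7 in dTAG. No dTAG library reached the lowest DMSO library, and the log2 difference was -1.37 (SE 0.33, adjusted p = 0.036). Over the 20 viewpoints, 1.58% of 1960 bins were called (0.408% lower and 1.17% higher), so that the share at ERRFI1 was near the background. The bin held a median of 16 interactions per library, and the call was lost without DMSO replicate 1 (adjusted p = 0.135), without DMSO replicate 3 (adjusted p = 0.119), without dTAG replicate 1 (adjusted p = 0.109), without dTAG replicate 2 (adjusted p = 0.083), without dTAG+I-BET replicate 1, which is not part of the comparison (adjusted p = 0.051), and when only the groups compared were fitted (adjusted p = 0.064).

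Other bins of CAMTA1 were next in order. The bin from 310 to 320 kb downstream (chr1:7706309-7716308) was at 169.3, 161.2 and 143.8 per kb in DMSO and 98.4, 87.1 and 84.4 in dTAG, without overlap, with a log2 difference of -0.81 (SE 0.21, adjusted p = 0.059). edgeR, applied to the recovered interactions, called this bin as well (log2 -0.77, adjusted p = 0.031). The bin from 370 to 380 kb downstream differed by -0.60 (SE 0.29, adjusted p = 0.381). In all, 8 of the 98 bins (8.16%) had dTAG libraries that did not overlap the DMSO libraries, beside 16.3% over all viewpoints. Over the whole CAMTA1 body within 500 kb, signal was 82.3, 78.5 and 91.4 per kb in DMSO and 72.0, 73.5 and 82.2 in dTAG, and the groups overlapped (log2 -0.15, SE 0.09, adjusted p = 0.586).

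**Figure D2:**
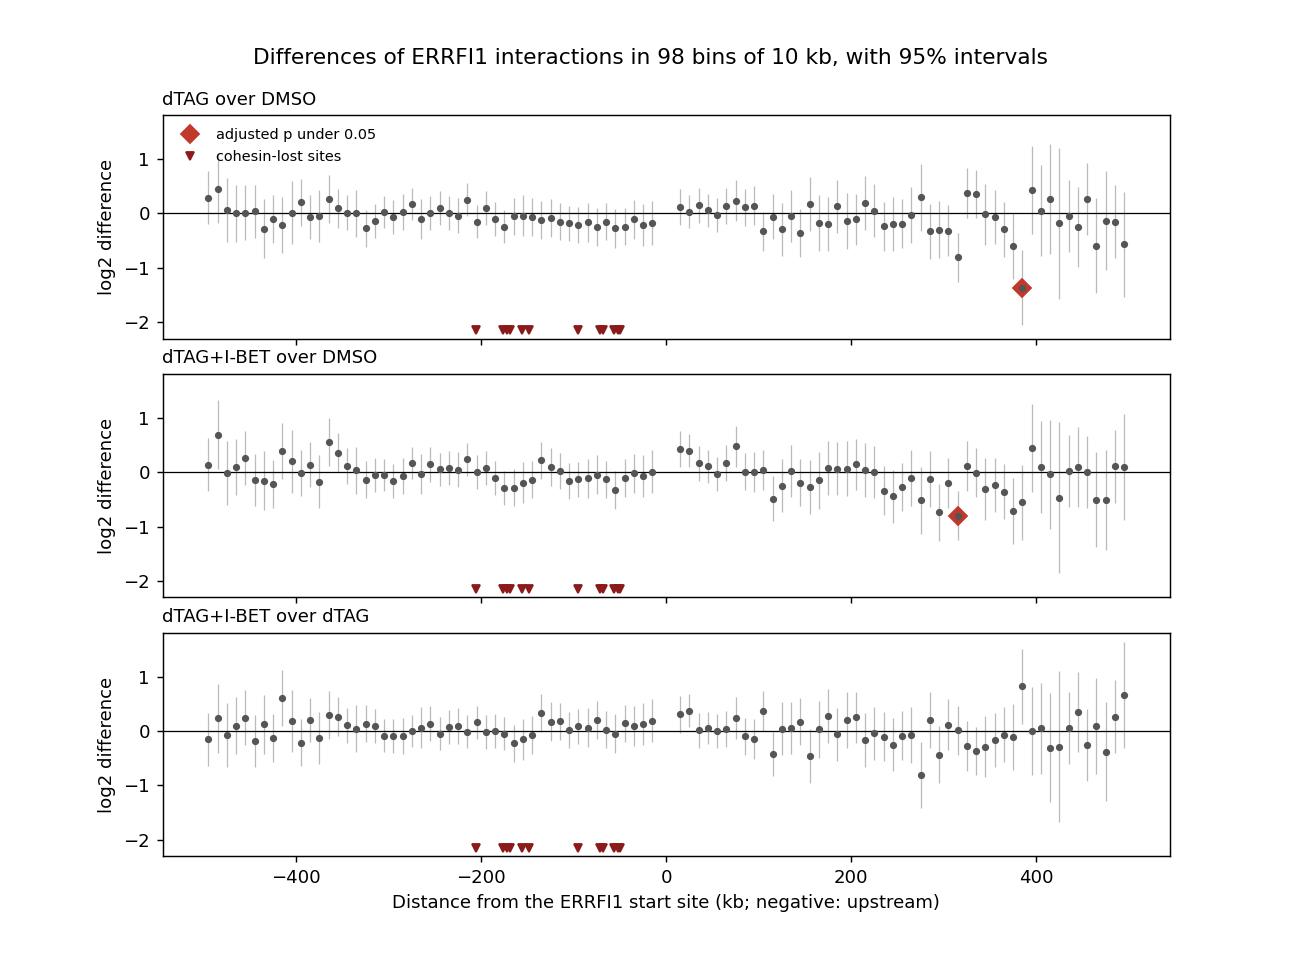
Log2 differences of signal per kb (y axis, points with 95% intervals) in the 98 bins of 10 kb around ERRFI1 against distance from the start site (x axis, kb), for the 3 comparisons of treatments. The diamonds mark the called bins, at 380 to 390 kb downstream in dTAG (-1.37) and 310 to 320 kb downstream in dTAG+I-BET (-0.80), and none is called between the 2 treatments; triangles mark the cohesin-lost sites.

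Signal over the cohesin-lost sites was lower in dTAG than in DMSO on average, but the size of the difference rested on 1 library. The 12 sites, each with 5 kb added on either side and merged, cover 86.4 kb. They were at 1346.0, 1302.8 and 1242.4 per kb in DMSO replicates 1, 2 and 3 and at 1293.1, 1246.3 and 915.7 in the dTAG replicates. dTAG replicates 1 and 2 lay within the DMSO range, and replicate 3 lay below it. The log2 difference was -0.19 (SE 0.13, 95% interval -0.46 to 0.08, adjusted p = 0.301), and without dTAG replicate 3 it was -0.03 (adjusted p = 0.758). Of the 19 viewpoints that have such sites, 0% were called in this comparison, and 5 had an unadjusted p under 0.05, without ERRFI1. edgeR called 26.3% of the viewpoints and gave -0.12 for ERRFI1 (adjusted p = 0.427).

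The same windows mirrored to the downstream side of the promoter give a second measure, a ratio within a library that does not depend on how the library was scaled. They were at 293.0, 303.8 and 328.1 per kb in DMSO and at 325.3, 323.6 and 294.0 in dTAG. Within a library, the log2 ratio of cohesin-lost to mirrored windows was 2.20, 2.10 and 1.92 in DMSO and 1.99, 1.94 and 1.64 in dTAG. DMSO replicate 3 lay among the dTAG libraries, so that the groups overlapped. The difference of these ratios was -0.22 (SE 0.11, 95% interval -0.45 to 0.02, adjusted p = 0.124), beside 31.6% of 19 viewpoints called and a median of -0.21 over them. It was -0.11 without dTAG replicate 3 (adjusted p = 0.401). Without DMSO replicate 3 and dTAG replicate 3 together, a setting chosen after the data had been seen, the difference was -0.18 with an adjusted p of 0.046.

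**Figure D3:**
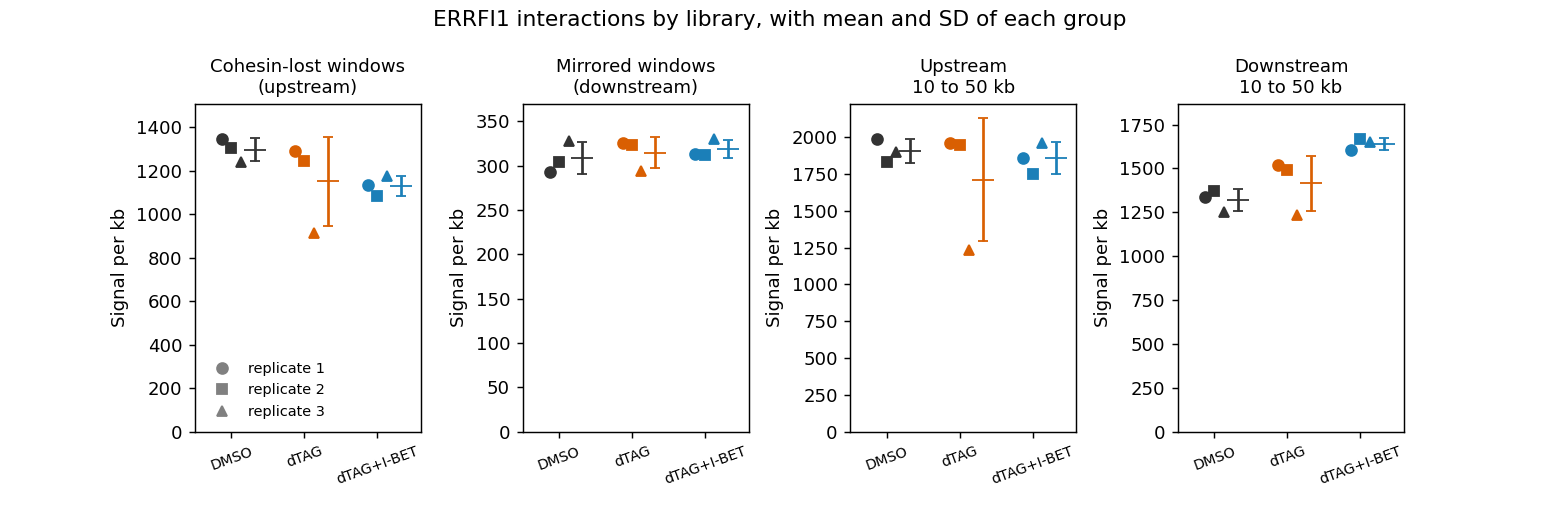
Signal per kb of the ERRFI1 viewpoint (y axis) in each library, with symbols for the replicates and the mean and SD of each group beside them, for the merged cohesin-lost windows, the mirrored windows downstream, and the bands from 10 to 50 kb upstream and downstream. dTAG replicate 3 (triangle) is the lowest library in the cohesin-lost windows at 915.7 and in the upstream band at 1232.7, and the dTAG+I-BET libraries at 1603.3 to 1667.1 lie above all others in the downstream band.

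None of the 12 sites was called in dTAG, beside 14.4% of 153 site windows over all viewpoints, and none had an unadjusted p under 0.05 with limma or edgeR. All 12 differences were below 0, from -0.32 at site 1 to -0.003 at site 8, with a median of -0.17 beside -0.20 over the 153 windows. With edgeR, 11 of the 12 were below 0. dTAG replicate 3 was the lowest of the 9 libraries at all 12 sites, and without it 9 of the 12 differences were below 0, from -0.14 to 0.21, with a median of -0.05. Site 3, 56.5 kb upstream, was the only one of the 12 whose dTAG values were all under the DMSO range, beside 24.8% of the 153 windows. It was at 1926.7, 1726.9 and 1711.9 per kb in DMSO and at 1666.0, 1619.7 and 1104.8 in dTAG (log2 -0.31, SE 0.17, adjusted p = 0.268). Site 8, which holds 2 AP-1 matches, was at 1154.5, 1232.1 and 1201.6 per kb in DMSO and at 1371.4, 1403.8 and 882.4 in dTAG. Its dTAG replicates 1 and 2 lay above all DMSO libraries and replicate 3 below them. Windows of neighbouring sites overlapped in 6 of 11 pairs, so that the 12 values are not independent.

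**Figure D4:**
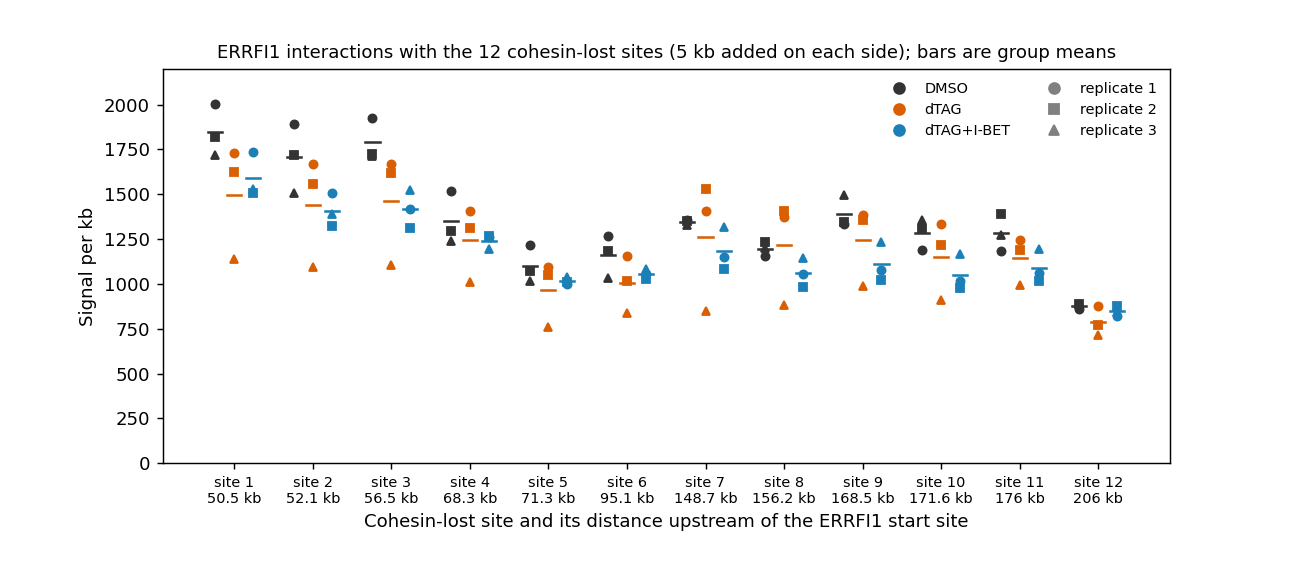
Signal per kb (y axis) at the 12 cohesin-lost sites upstream of ERRFI1, each with 5 kb added on either side, ordered by distance (x axis), with 1 symbol per library colored by treatment and a bar at each group mean. DMSO means fall from 1847.1 at site 1 to 878.1 at site 12, and dTAG replicate 3 is the lowest library at each site.

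The balance between the sides of the promoter was not called in dTAG. The log2 ratio of upstream to downstream signal from 10 to 500 kb was 1.74, 1.65 and 1.66 in DMSO and 1.67, 1.63 and 1.43 in dTAG. dTAG replicate 1 lay within the DMSO range, and the others lay below it. The difference was -0.11 (SE 0.07, 95% interval -0.26 to 0.04, adjusted p = 0.19), beside 50% of the 20 viewpoints called and a median of -0.18, and it was -0.03 without dTAG replicate 3 (adjusted p = 0.585). From 10 to 200 kb the ratio was 1.57, 1.39 and 1.45 in DMSO and 1.38, 1.35 and 1.07 in dTAG, without overlap, and the difference was -0.21 (adjusted p = 0.067). None of the 8 bands of distance was called (3.12% of 160 over all viewpoints), and none of the 8 gene bodies (0.709% of 141), with none of either at an unadjusted p under 0.05 with limma or edgeR. Within 10 kb of the start site, which the tests leave out, signal at 1 to 10 kb downstream, in the body of ERRFI1, was 3958.9, 4097.2 and 4044.2 per kb in DMSO and 5103.4, 4714.1 and 4540.2 in dTAG. The groups did not overlap (exact permutation test, two-sided, p = 0.1, the smallest that 3 against 3 libraries allow), in a range chosen after other values had been seen. At 1 to 10 kb upstream they overlapped, at 2440.9, 2126.7 and 2412.1 per kb in DMSO and 2471.8, 2368.5 and 1701.1 in dTAG. Shares over the other viewpoints are not given for this range. For loci not sensitive to Mediator depletion, the study mentions some technical variation in signal close to promoter viewpoints.

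With I-BET added to the dTAG ligand, signal was higher just downstream of the promoter and lower over the cohesin-lost sites than in DMSO, in 3 of 3 libraries each, but limma called neither difference. From 10 to 50 kb downstream, over the end of ERRFI1 and part of PARK7, signal was 1339.6, 1374.0 and 1250.6 per kb in DMSO and 1603.3, 1667.1 and 1649.8 in dTAG+I-BET. The groups did not overlap. In dTAG this band was at 1520.9, 1489.3 and 1232.7 per kb. dTAG replicates 1 and 2 thus also lay above all DMSO libraries, and replicate 3 lay below them. Over all viewpoints, all dTAG+I-BET libraries lay above DMSO in 28.75% of 160 bands and below it in 13.75%. At ERRFI1 these were 1 and 2 of 8 bands. The log2 difference of the band from 10 to 50 kb downstream was 0.31 (SE 0.10, 95% interval 0.09 to 0.54, adjusted p = 0.084). None of the 8 bands was therefore called, beside 7.5% of 160 over all viewpoints, and 2 had an unadjusted p under 0.05. edgeR, which called 21.2% of the 160 bands (15% higher), called this band (log2 0.37, adjusted p = 0.014). limma called it when dTAG replicate 3 was left out (adjusted p = 0.0014), after rescaling to equal totals over 10 to 1000 kb (adjusted p = 0.0012) and when only the groups compared were fitted (adjusted p = 0.0039). dTAG replicate 3 is not part of this comparison, but the fit takes 1 spread from all 9 libraries. The other band with an unadjusted p under 0.05 lay from 200 to 500 kb downstream, at 97.6, 90.3 and 102.8 per kb in DMSO and 83.4, 81.3 and 86.4 in dTAG+I-BET. Its dTAG+I-BET libraries lay under the DMSO range (log2 -0.21, SE 0.09, adjusted p = 0.187), and limma called it without dTAG replicate 3 (adjusted p = 0.026) and with only the groups compared (adjusted p = 0.041).

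Within the band from 10 to 50 kb downstream, the bin from 20 to 30 kb, chr1:7996309-8006308, had the lowest p. It holds the end of the ERRFI1 gene (chr1:8004404-8026309), but most of the bin lies beyond the gene. The bin was at 1196.9, 1178.2 and 1064.9 per kb in DMSO, at 1157.7, 1279.0 and 1079.4 in dTAG and at 1510.2, 1496.9 and 1520.9 in dTAG+I-BET. All dTAG+I-BET libraries lay above all others. The log2 difference from DMSO was 0.40 (SE 0.15, adjusted p = 0.154), and edgeR gave 0.46 (adjusted p = 0.025). At 1 to 10 kb downstream, dTAG+I-BET was at 4577.9, 4642.5 and 5081.9 per kb, above all DMSO libraries and within the dTAG range.

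In bins, 1 of 98 was called in dTAG+I-BET against DMSO, beside 4.9% over all viewpoints (1.43% lower and 3.47% higher). It was the bin of CAMTA1 at 310 to 320 kb downstream described for dTAG, at 90.5, 93.8 and 87.1 per kb, below all DMSO libraries (log2 -0.80, SE 0.21, adjusted p = 0.034). The call was lost when DMSO replicate 1 (adjusted p = 0.171), DMSO replicate 2 (adjusted p = 0.141) or any of dTAG+I-BET replicates 1, 2 and 3 (adjusted p = 0.127, 0.106 and 0.114) was left out. The bin at 290 to 300 kb downstream, also in CAMTA1, was at 122.0, 99.2 and 123.3 per kb in DMSO and 55.7, 62.5 and 90.7 in dTAG+I-BET (log2 -0.74, SE 0.25, adjusted p = 0.119). Together 20 of 98 bins (20.4%) did not overlap between the groups, beside 26.3% over all viewpoints.

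Over the cohesin-lost sites, the dTAG+I-BET replicates were at 1134.1, 1084.9 and 1175.9 per kb, and all lay below the DMSO libraries. The log2 difference was -0.20 (SE 0.13, 95% interval -0.47 to 0.07, adjusted p = 0.242), where 5.26% of 19 viewpoints were called. It passed the threshold when dTAG replicate 3 was left out (adjusted p = 0.014) and when only the groups compared were fitted (adjusted p = 0.018), both with the same size of difference, and when libraries were rescaled (log2 -0.17, adjusted p = 0.049). edgeR gave -0.13 (adjusted p = 0.386). The mirrored windows were at 312.9, 312.3 and 329.8 per kb, within or just above the DMSO range.

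The ratio of cohesin-lost to mirrored windows was 1.85, 1.79 and 1.83 on the log2 scale in dTAG+I-BET, below all DMSO libraries. The difference was -0.24 (SE 0.11, 95% interval -0.48 to -0.01), and its adjusted p was 0.064, beside 57.9% of 19 viewpoints called (52.6% lower) and a median of -0.24 over them. The ratio of upstream to downstream signal was 1.54, 1.50 and 1.54, also below all DMSO libraries. Here the difference was -0.15 (SE 0.07, 95% interval -0.30 to -0.004, adjusted p = 0.069), beside 50% of 20 viewpoints called (45% lower) and a median of -0.20. Both measures passed the threshold without dTAG replicate 3 (adjusted p = 0.027 and 0.017) and when only the groups compared were fitted (adjusted p = 0.035 and 0.027), the first also without DMSO replicate 3 (log2 -0.32, adjusted p = 0.028), and the second also when only 10 to 200 kb were used (log2 -0.29, adjusted p = 0.015).

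None of the 12 sites was called in dTAG+I-BET against DMSO, beside 17% of 153 site windows (11.8% lower and 5.23% higher), and none had an unadjusted p under 0.05 with limma, against 1 with edgeR. All 12 differences were again below 0, from -0.34 at site 3 to -0.05 at site 12, with a median of -0.20 beside -0.17 over all 153 windows. Because both treatments are compared with the same DMSO libraries, their values are not independent. At 5 sites the dTAG+I-BET libraries all lay below the DMSO libraries: sites 3, 7, 8, 9 and 10. The same held for 32.7% of the 153 site windows. Site 3 was at 1418.6, 1309.0 and 1521.6 per kb (log2 -0.34, SE 0.17, adjusted p = 0.178). Site 9, in the exon of ENSG00000288816, was at 1332.4, 1345.4 and 1497.9 per kb in DMSO and 1077.3, 1021.8 and 1235.4 in dTAG+I-BET (log2 -0.33, SE 0.16, adjusted p = 0.177). Both sites passed the threshold without dTAG replicate 3 (adjusted p = 0.024 and 0.034).

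None of the 8 protein-coding gene bodies was called in dTAG+I-BET against DMSO (2.13% of 141), by limma or edgeR, and 2 had an unadjusted p under 0.05 with limma and 3 with edgeR. VAMP3, 245 to 255 kb downstream, was at 202.0, 181.5 and 165.5 per kb in DMSO, 186.6, 187.7 and 159.4 in dTAG and 147.6, 140.5 and 136.1 in dTAG+I-BET. Its dTAG+I-BET libraries lay below all others (log2 -0.37 against DMSO, SE 0.10, adjusted p = 0.111). CAMTA1 was at 70.2, 71.1 and 72.3 per kb in dTAG+I-BET, below all DMSO libraries (log2 -0.23, SE 0.09, adjusted p = 0.19). The summit before SLC45A1 did not stand apart between groups, with 2080.9, 1952.9 and 1692.5 per kb in dTAG and 1739.9, 1656.7 and 1949.3 in dTAG+I-BET, overlapping each other and DMSO. The log2 difference from DMSO was 0.03 (95% interval -0.30 to 0.35) in dTAG and -0.07 (95% interval -0.40 to 0.26) in dTAG+I-BET. SLC45A1 itself differed by -0.02 (95% interval -0.21 to 0.16) and -0.05 (95% interval -0.23 to 0.13).

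Adding I-BET to the dTAG ligand gave no called difference at ERRFI1 against dTAG alone. None of the 98 bins was called by limma or edgeR, 6 had an unadjusted p under 0.05 with limma and 8 with edgeR, and over all viewpoints 0% of bins were called. Neither were any of the 12 sites, 8 bands or 8 gene bodies called by either tool, where limma called 0% in each over all viewpoints and edgeR 1.31% of the 153 site windows and 0% of bands and gene bodies. The cohesin-lost windows differed by -0.01 (SE 0.13, 95% interval -0.28 to 0.26, adjusted p = 0.999), the ratio of cohesin-lost to mirrored windows by -0.03 (95% interval -0.26 to 0.20, adjusted p = 0.868) and that of upstream to downstream signal by -0.05 (95% interval -0.20 to 0.10, adjusted p = 0.664). These intervals leave room for changes of the size seen against DMSO. Without dTAG replicate 3 the 3 differences were -0.17, -0.14 and -0.12, and none was called. Of the 12 sites, 7 had differences below 0, with a median of -0.02. Without that library 11 of the 12 were below 0, with a median of -0.18, and none was called. The dTAG+I-BET libraries did lie above all dTAG libraries from 10 to 50 kb downstream (log2 0.22, SE 0.10, adjusted p = 0.473). At ERRFI1 this held for 1 of 8 bands, beside 23.75% of 160 over all viewpoints, with 0% the other way. Without dTAG replicate 3 the difference of this band between the treatments was 0.12, and that of dTAG from DMSO was 0.19, with neither called. The dTAG+I-BET libraries lay below all dTAG libraries over VAMP3 (log2 -0.33, SE 0.10, adjusted p = 0.309). They lay above them over UTS2, which was at 108.8, 118.7 and 116.2 per kb in dTAG and 170.2, 153.2 and 128.8 in dTAG+I-BET (log2 0.38, SE 0.19, adjusted p = 0.640). In DMSO, UTS2 was at 109.5, 162.5 and 183.8 per kb, overlapping both treatments, and dTAG+I-BET differed from DMSO by log2 0.01. It held a median of 46 interactions per library. Shares of gene bodies without overlap over all viewpoints are not given. The bins with the lowest p were those at 270 to 280 kb downstream (log2 -0.81, SE 0.29), 20 to 30 kb downstream (log2 0.37, SE 0.15) and 380 to 390 kb downstream (log2 0.82, SE 0.33), with an adjusted p of 0.712 for each.

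Set against the other viewpoints, ERRFI1 had one of the largest skews in DMSO. Its ratio of cohesin-lost to mirrored windows in DMSO, 2.07 ± 0.14 on the log2 scale (SD, n = 3), was the highest of 19 viewpoints, but PHLDA1, a pleckstrin-homology protein gene, was at 2.07 ± 0.07 and did not differ from it beyond the spread. Its ratio of upstream to downstream signal was 1.68 ± 0.05, next to 1.68 ± 0.34 at HMGA2, which encodes an architectural chromatin protein. In dTAG+I-BET these became 1.53 ± 0.03 at ERRFI1 and 0.66 ± 0.003 at HMGA2, a difference from DMSO of -0.15 (SE 0.07, adjusted p = 0.069) and -1.02 (SE 0.15, adjusted p = 0.00067). The difference between these changes was not tested.

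**Figure D5:**
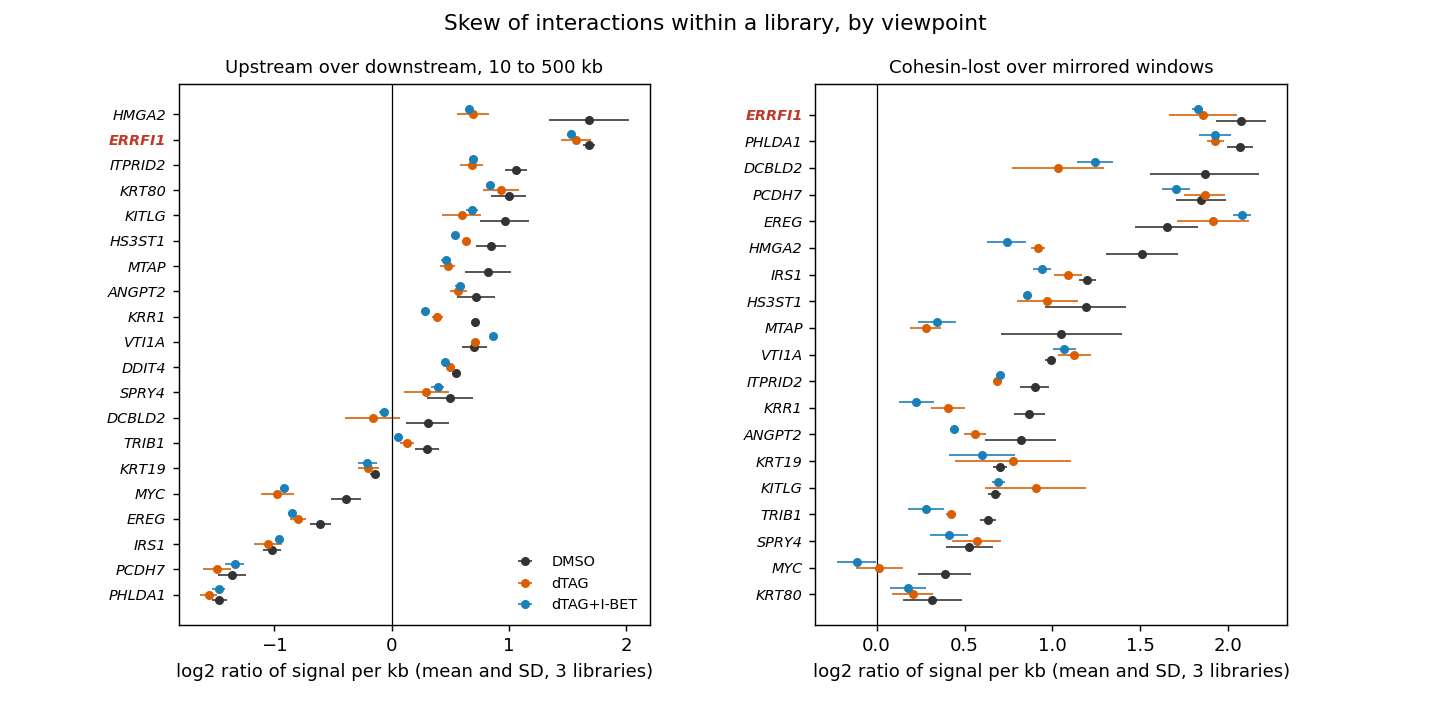
Log2 ratios of signal per kb within a library (x axis, mean and SD of 3 libraries per treatment) for each viewpoint (y axis), of upstream over downstream sequence at left and of cohesin-lost over mirrored windows at right, ordered by DMSO. ERRFI1, in red, has means of 1.68 and 2.07 in DMSO and of 1.53 and 1.83 in dTAG+I-BET.

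Among the 20 promoters, 6 others belong to genes of growth factor and receptor signalling: the ligands EREG, KITLG and ANGPT2, the receptor adaptor IRS1, SPRY4, a feedback inhibitor like ERRFI1, and the pseudokinase TRIB1. For the ratio of cohesin-lost to mirrored windows, none of the 6 was called in dTAG, beside 31.6% of 19 viewpoints, where their differences ranged from -0.26 (ANGPT2) to 0.26 (EREG) around the -0.22 of ERRFI1. In dTAG+I-BET, 3 were called lower (ANGPT2, -0.38; TRIB1, -0.35; IRS1, -0.26) and EREG was called higher (0.43), while SPRY4 was at -0.11 and KITLG at 0.02. Over the 19 viewpoints 52.6% were called lower and 5.26% higher, the latter being EREG itself. For the ratio of upstream to downstream signal, 3 of the 6 were called lower in dTAG, beside 50% of 20 viewpoints, and 2 in dTAG+I-BET, beside 45%. The median of the 6 in dTAG+I-BET was -0.19 for both ratios, beside -0.24 and -0.20 over all viewpoints.

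The viewpoints whose ratio of cohesin-lost to mirrored windows was most like that of ERRFI1 over the 9 libraries were DCBLD2, a cell-surface receptor-like protein gene (Pearson r = 0.88), ITPRID2, which encodes an actin-associated protein (r = 0.81), and PHLDA1 (r = 0.76). This is a description: the points share their libraries, which include the low dTAG replicate 3.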

How the data were processed

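Capture-C libraries were digested with DpnII and sequenced by the authors, demultiplexed with bcl2fastq 2.17 (submitters' processing notes) and analyzed by them with CapCruncher on hg38. The deposited signal counts interactions per DpnII fragment after scaling by the authors, which left the libraries of a viewpoint with similar sums (938778 to 946378 on chromosome 1 for ERRFI1); replicates were not pooled, and no columns were set aside. All 102057804 values (100%, tolerance 0.01) were whole multiples of their column's smallest value above 0, so that interactions could be recovered (1 interaction equals a signal of 20.7 to 39.4 at ERRFI1). Counting limits the precision in weak bins, since a bin held a median of 7 to 800 interactions.

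Fragments were assigned by midpoint to 10-kb bins, bands of distance, gene bodies (GENCODE v44, at least 2 kb) and the cohesin-lost sites of the study's peak table (positions only; 5 kb added). Group differences were tested on log2(signal per kb + 1) with limma 3.58.1 in R 4.3.3, over all 20 viewpoints and 9 libraries, with Benjamini-Hochberg adjustment; fold changes are on this scale. edgeR 4.0.16 (quasi-likelihood) was run on the recovered interactions. The filter of 2 per kb removed 0 bins. Tables were made in Python 3.11.15 (pandas 2.3.3, numpy 2.4.6, scipy 1.17.1), and matplotlib 3.10.9 drew the figures. Both tools were tested on simulated data. The members, lists and motifs were chosen with earlier results of these data known. Named are all called bins, the 3 bins with the lowest p per comparison, the 5 bins highest over the median of the viewpoints, all sites, genes and bands, and the 3 viewpoints most like ERRFI1. The labels do not say whether the replicate numbers pair the libraries, and the main tests did not pair them. In their deviations from the group means over all bins, same-numbered libraries did not all correlate above 0.1. DMSO replicate 3 and dTAG replicate 3 had the highest correlation between groups (r = 0.23). dTAG replicates 1 and 2, and dTAG+I-BET replicates 1 and 3, agreed within sampling noise at ERRFI1 but not over all viewpoints, and were kept as separate libraries. The alternatives were rescaling, other pseudocounts, bins, windows, ranges and filters, a replicate block, fits of only the groups compared, edgeR, and leaving out libraries. The other assays of the study were not used here.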

Additional observations from a re-analysis of the deposited data

How the results depend on the processing

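For each of 21 results, 16 to 20 alternatives were run. Leaving out 1 library at a time gave 0 to 1 called bins for dTAG against DMSO, 0 to 4 for dTAG+I-BET against DMSO, and between the treatments 0 in each case. It gave log2 differences of -0.28 to -0.03, -0.23 to -0.17 and -0.17 to 0.082 for the cohesin-lost windows in these 3 comparisons, -0.29 to -0.11, -0.32 to -0.18 and -0.14 to 0.037 for their ratio to mirrored windows, and -0.15 to -0.03, -0.17 to -0.12 and -0.12 to -0.0011 for upstream over downstream signal. For dTAG+I-BET against DMSO it gave 0 to 2 called sites and 0 to 2 called bands. For dTAG+I-BET against dTAG, the cohesin-lost windows changed sign without dTAG replicate 1 (0.082), dTAG replicate 2 (0.056) and dTAG+I-BET replicate 2 (0.021), and their ratio to mirrored windows without dTAG replicates 1 (0.037) or 2 (0.015).

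Bins called in dTAG numbered 2 with edgeR (4.74% of bins over all viewpoints) and 0 with 5-kb bins, 25-kb bins or only the groups compared. In dTAG+I-BET against DMSO they numbered 3 after rescaling, 3 with edgeR (7.19%), 4 with only the groups compared and 0 with 5-kb or 25-kb bins. In that comparison the cohesin-lost windows were called after rescaling (-0.17) and with only the groups compared (-0.20), their ratio to mirrored windows with only the groups compared (-0.24), and upstream over downstream signal with only the groups compared (-0.15) and from 10 to 200 kb (-0.29). Called sites numbered 2 after rescaling and 1 with only the groups compared, and called bands 1 after rescaling, 2 with only the groups compared and 1 with edgeR.

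Without DMSO replicate 3 and dTAG replicate 3 together, chosen after seeing the data, dTAG had 0 called bins, 2 called bands and a called ratio of cohesin-lost to mirrored windows (-0.18). dTAG+I-BET against DMSO then had 5 called bins, 2 sites, 1 gene body and 3 bands, with -0.23 for the cohesin-lost windows, -0.32 for their ratio to mirrored windows and -0.17 for upstream over downstream signal, all called, and dTAG+I-BET against dTAG had -0.12 for the last, also called.

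The labels do not say whether libraries with the same replicate number belong together. With a replicate block, the ratio of cohesin-lost to mirrored windows in dTAG+I-BET against DMSO was called (-0.24, adjusted p = 0.040), and the block changed no other call among the 21 results. The limits are the 3 libraries per group, the spread that dTAG replicate 3 adds to every comparison, and the few interactions in distant downstream bins. edgeR was not run on ratios within a library.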

Other observations

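Beyond 500 kb, the upstream skew of ERRFI1 remained visible. From 500 to 1000 kb upstream, over RERE and the sequence behind it, signal was 72.7, 77.8 and 85.3 per kb in DMSO, 78.2, 76.7 and 102.2 in dTAG and 73.9, 77.2 and 73.8 in dTAG+I-BET, and the groups overlapped. From 500 to 1000 kb downstream, all of it within CAMTA1, it was 34.6, 32.5 and 34.4 per kb in DMSO, 27.3, 30.4 and 37.6 in dTAG and 28.7, 30.6 and 29.2 in dTAG+I-BET. The dTAG+I-BET libraries lay below all DMSO libraries (exact permutation test, two-sided, p = 0.1, the smallest that 3 against 3 allow), and dTAG replicate 3 was the highest of the 9 on both sides. Interactions with other chromosomes made up 41.2% of those of ERRFI1 in that library and 34.4% to 37.9% in the other 8.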
